A study of Mus musculus with 4 samples.

Results

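The pre-B cell receptor and the proteins that carry its signal were followed through 10 genes, chosen by name: the VpreB and lambda 5 genes Vpreb1, Vpreb2, Vpreb3 and Igll1, the signalling chains Cd79a and Cd79b, the adaptor Blnk and the kinases Syk, Btk and Blk. All 10 are among the 17508 genes listed, and 192 of 343 analysed wells held at least 1 of their transcripts, 4172 in all. The wells hold single bone marrow cells of C57BL/6 mice, negative for the integrin chain CD51, which the labels call TNCs without spelling the term out. They were sorted as CD44+ or CD44-, CD44 being the receptor for hyaluronan. The series asks how much of the CD45-negative marrow is haematopoietic, and CD45 is the leukocyte antigen encoded by Ptprc. CD44+ libraries 1, 2 and 3 held 56, 95 and 87 wells with at least 1000 transcripts, and CD44- libraries 1, 2 and 3 held 44, 24 and 37. Library 1 of each sort is a plate of its own, and libraries 2 and 3 of both sorts share a plate. No genotype, treatment or age separates the sorts in the labels, which also do not say which or how many animals gave each plate. P-values over libraries therefore reflect the variation among these 6 libraries alone, and part of it may be technical.

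Before a B cell has a light chain of its own, its heavy chain pairs with the surrogate light chain, made of VpreB (Vpreb1 or Vpreb2) and lambda 5 (Igll1). With Ig alpha (Cd79a) and Ig beta (Cd79b) this forms the pre-B cell receptor on the cell surface. Src family kinases, among them Blk, phosphorylate the tails of Ig alpha and Ig beta, Syk binds there and is activated, and the adaptor BLNK brings Btk to its substrates. In mouse marrow the surrogate light chain genes are known to be transcribed in pro-B and early pre-B cells and to be switched off in later stages, whereas Cd79a and Cd79b stay on in mature B cells. Vpreb3 encodes a VpreB-related protein of the endoplasmic reticulum that is not part of the surrogate light chain. In what follows, surrogate light chain stands for Vpreb1, Vpreb2 and Igll1 together, and Cd79 for Cd79a and Cd79b together.

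In mm10 (GRCm38, GENCODE vM21), Igll1 lies on chromosome 16 from 16860671 to 16863985 and Vpreb1 from 16868403 to 16870843, both on the reverse strand and 4418 bases apart. Vpreb2 lies on the forward strand of the same chromosome from 17980428 to 17981273. Vpreb1 and Vpreb2 are near-identical copies, with 420 of 429 coding bases equal (97.9%) and 193 of the last 200 transcript bases equal (96.5%), against 45.7% for the aligned coding bases of Vpreb1 and Vpreb3. The library method counts transcripts near their ends, so how reads were divided between Vpreb1 and Vpreb2 is uncertain, and their sum is the safer value. The last 120 coding bases of both genes, stop codon included, are shown because they are the stretch nearest to the counted end; capitals mark the 5 positions that differ.
Vpreb1: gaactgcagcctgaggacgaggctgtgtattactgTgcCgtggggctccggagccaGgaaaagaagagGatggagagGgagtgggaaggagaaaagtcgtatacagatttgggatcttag
Vpreb2: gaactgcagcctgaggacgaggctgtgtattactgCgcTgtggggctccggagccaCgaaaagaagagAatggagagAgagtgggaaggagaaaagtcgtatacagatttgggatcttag

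Igll1 is the member whose levels correlated best with those of Vpreb1 over the 40 B lineage-like wells described further on. Of the 8 members with an entry in the RefSeq promoter table (GRCm38.p6, 250 bases before to 50 after each start), Igll1 alone held the letters CCCNNGGG, the core bound by early B cell factor 1, in the 250 bases before its start. A match stands for these letters only, on either strand (the pattern reads the same on both), and 3882 of 32851 promoter windows (11.8%) hold it. A match in 1 of 8 members is near this background. The windows follow RefSeq starts, and that of Vpreb1, from 16869256 to 16869505, lies inside the gene span given above. The members' windows are therefore not like regions. The E-box letters CANNTG, also the same on both strands, stand in 66.2% of windows and in all 8 members. The 250 bases before the start of Igll1, chr16:16863986-16864235 on the reverse strand, have the CCCNNGGG match in capitals.
Igll1: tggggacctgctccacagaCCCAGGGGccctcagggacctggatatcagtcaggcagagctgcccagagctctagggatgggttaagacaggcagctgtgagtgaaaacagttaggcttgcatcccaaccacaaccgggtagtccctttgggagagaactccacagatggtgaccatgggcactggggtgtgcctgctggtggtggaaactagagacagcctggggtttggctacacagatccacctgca

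The other members lie on other chromosomes: Vpreb3 on chromosome 10 from 75943057 to 75949657, Cd79a on 7 from 24897381 to 24902197, Cd79b on 11 from 106311341 to 106314762, Blnk on 19 from 40928927 to 40994535, Syk on 13 from 52583173 to 52648792, Btk on X from 134542336 to 134583570 and Blk on 14 from 63372836 to 63417037 (GRCm38). All 10 are annotated as protein-coding.

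The libraries differed in depth and in the cells they held, and both bear on every level below. Summed transcripts per library ranged over 149707 to 1707318 for CD44+, against 97041 to 158763 for CD44-, with medians per well of 1994 to 11225 and 1795 to 2544. Wells of low quality, with a high share of mitochondrial or nuclear transcripts, were 21.8% to 48.2% of CD44+ wells and 4.17% to 34.1% of CD44- wells. A list of 20 B lineage markers that holds none of the 10 genes had 19 measured markers, 19 found among CD44+ wells and 18 among CD44- wells, where Pax5 was at 0. Their summed level was 1042, 2157 and 466 CPM (counts per 1000000 transcripts of the library) in CD44+ libraries 1, 2 and 3, against 1731, 1707 and 1852 CPM in CD44- libraries 1, 2 and 3. Ptprc stood at 140.3, 146 and 37.5 CPM in CD44+ libraries, against 330, 355 and 94.5 CPM in CD44- libraries. Fewer cells of a type and less RNA per cell cannot be told apart in such sums.

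Surrogate light chain genes had their extremes within the CD44+ sort. Vpreb1 stood at 100.3, 402 and 22.3 CPM in CD44+ libraries 1, 2 and 3, and at 165, 128 and 284 CPM in CD44- libraries 1, 2 and 3. Igll1 stood at 86.8, 405 and 22.3 CPM in CD44+ libraries, against 113, 247 and 259 CPM in CD44- libraries. CD44+ library 2 was the highest and CD44+ library 3 the lowest of all 6 for both genes, so the CD44- values lay inside the CD44+ range. Vpreb2 was rare, with 1, 25 and 3 transcripts in the CD44+ libraries and 1, 1 and 3 in the CD44- libraries, or 5.90% of the number of Vpreb1 transcripts over all wells. This share varied little, from 5.57% to 7.88% over the CD44+ libraries and from 6.25% to 7.69% over the CD44- libraries, on counts of 1 to 3 in all but 1 library. Igll1 and Vpreb1 were counted in nearly equal numbers (ratio 1.01 over all wells; 0.866, 1.01 and 1.00 in the CD44+ libraries, against 0.688, 1.92 and 0.911 in the CD44- libraries).

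Vpreb3 was the most abundant member, with 1017 transcripts. It stood at 241, 655 and 38.7 CPM in CD44+ libraries, against 732, 652 and 284 CPM in CD44- libraries. The Ig alpha gene Cd79a stood at 207, 550.1 and 39.9 CPM in CD44+ libraries, against 319.8, 761 and 385 CPM in CD44- libraries. The Ig beta gene Cd79b stood at 174, 231 and 29.3 CPM in CD44+ libraries, against 402, 108.5 and 132 CPM in CD44- libraries. CD44+ library 3 was again the lowest of the 6 for each of these genes, and the sorts overlapped. Transcripts of Cd79b per transcript of Cd79a were 0.839, 0.420 and 0.734 in the CD44+ libraries and 1.26, 0.143 and 0.344 in the CD44- libraries.

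The adaptor gene Blnk stood at 73.5, 156 and 9.96 CPM in CD44+ libraries, against 258, 59.2 and 145 CPM in CD44- libraries. The kinase gene Syk stood at 86.8, 137 and 16.4 CPM in CD44+ libraries, against 185.5, 128 and 132 CPM in CD44- libraries. Both genes overlapped between the sorts. Btk, the kinase gene mutated in X-linked agammaglobulinaemia of humans, was even over the libraries, at 26.7, 36.65 and 29.9 CPM in CD44+ libraries, against 10.3, 29.6 and 31.5 CPM in CD44- libraries. Its lowest value rests on 1 transcript.

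Blk, a Src family kinase gene used mainly in B cells, was the member whose sorts did not overlap. It stood at 20.04, 26.8 and 1.76 CPM in CD44+ libraries 1, 2 and 3, from 3, 30 and 3 transcripts. In CD44- libraries 1, 2 and 3 it stood at 134, 39.5 and 81.95 CPM, from 13, 4 and 13 transcripts. Each CD44- library was above each CD44+ library, and of the 13 transcripts in CD44- library 1, 7 came from 1 well, as did 9 of the 13 in CD44- library 3. Among the 7404 genes with at least 50 transcripts, 7.58% had all CD44- libraries above all CD44+ libraries, so 1 of the 9 members that reach this number is near the background.

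**Figure D1:**
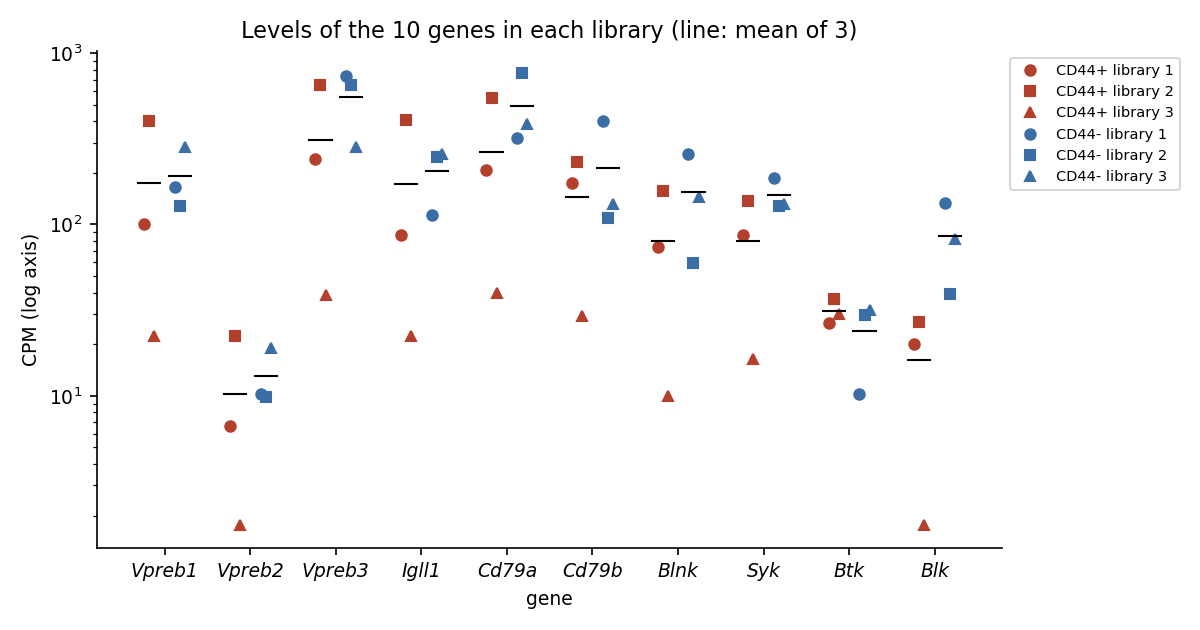
Level of each of the 10 genes in CPM (log axis) in each library; CD44+ libraries are red and stand left of CD44- libraries in blue, symbols give the library number and black lines the mean of 3. CD44+ library 3 was the lowest of all 6 for every gene but Btk, and Blk was the gene whose sorts did not overlap.

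Between the sorts, no member was called by the quasi-likelihood test of edgeR (adjusted p under 0.05 over all 2463 genes tested), against a background of 1.02% of genes called, 0.0406% higher and 0.974% lower in the CD44+ sort. The filter on low counts kept 7 of the 10 members and left out Vpreb2, Btk and Blk. Their log2 differences, CD44+ over CD44-, were -0.22 for Vpreb1 (SE 0.89, adjusted p = 0.918), -0.32 for Igll1 (SE 0.89, adjusted p = 0.872) and -0.94 for Vpreb3 (SE 0.89, adjusted p = 0.583). Cd79a stood at -0.93 (SE 0.82, adjusted p = 0.554) and Cd79b at -0.69 (SE 0.87, adjusted p = 0.698). Blnk stood at -1.07 (SE 0.97, adjusted p = 0.567) and Syk at -1.0 (SE 0.76, adjusted p = 0.497). All 7 fitted differences were below 0 with a median of -0.93, where 52.5% of all genes tested were below 0 with a median of -0.04. The 7 signs are not separate observations. The 40 B lineage-like wells described below gave 68.9% of the members' transcripts, and CD44+ library 3 was the lowest for each of the 7. None of the 7 had an unadjusted p under 0.05, and DESeq2 called none of them either (background 3.98% of genes higher and 6.98% lower in the CD44+ sort). The difference turned positive for Vpreb1, Igll1 and Cd79b under some of the alternatives, so no direction is given for them.

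Libraries were paired by replicate number, which stands for a shared plate for libraries 2 and 3 but for separate plates for library 1. With the pair as a block again 0 of the 7 members were called (background 6.33%, 1.75% higher and 4.59% lower). Vpreb3 then stood at -1.54 (SE 0.50) with the smallest adjusted p of the members, 0.0881 in edgeR. The unadjusted p of this edgeR fit was 0.0109 for Vpreb3, 0.0187 for Cd79a and 0.0345 for Syk. It was above 0.05 for the other members tested, and under 0.05 for 614 of all 2463 genes. With no filter on low counts, where all 10 members were tested among 16925 genes, Blk was the 1 member called in edgeR (log2 difference -2.13, SE 0.66, adjusted p = 0.0473; background 2.82%, with 1.98% lower in the CD44+ sort). On the shared plates alone the log2 difference of Blk was -2.06 with an adjusted p of 0.425 in edgeR, and it was not called with a library left out, in the 4 of 6 such fits that kept it (-3.82 to -1.75, adjusted p 0.185 to 0.43). The call of Blk thus rests on the setting without a filter.

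After each well was thinned to 1000 transcripts, a surrogate light chain transcript was found in 10.7%, 28.4% and 4.598% of wells of CD44+ libraries 1, 2 and 3, and in 13.6%, 45.8% and 8.11% of wells of CD44- libraries 1, 2 and 3. The share was lower in the CD44+ library of each of the 3 pairs, with differences of -2.92, -17.4 and -3.51 percentage points (CD44+ minus CD44-). The means were 14.6% ± 12.4 and 22.5% ± 20.4 (SD, n = 3 libraries each), with an exact two-sided permutation p of 0.6, where 3 against 3 cannot go below 0.1. Adjusted over the 2 tests of this kind, p was 0.6, and a sign-flip test within pairs gave the smallest p it can reach, 0.25. Without thinning, the shares were 10.7%, 45.3% and 9.20% in the CD44+ libraries and 15.9%, 62.5% and 8.11% in the CD44- libraries. Without the wells of low quality the mean share was 0.691 points higher in the CD44+ sort. Without CD44- library 2 alone, which keeps its partner CD44+ library 2, it was 3.71 points higher, whereas the differences of the other 2 pairs are both below 0.

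In the ratio of summed surrogate light chain to summed Cd79 transcripts, which no depth factor scales, the sorts also overlapped. The log2 ratio was -0.951, 0.087 and -0.572 in the CD44+ libraries, and -1.293, -1.156 and 0.117 in the CD44- libraries. The difference of the means was 0.298 (exact two-sided permutation p = 0.6, adjusted over the 2 tests 0.6; 2 of 3 pairs higher in the CD44+ sort, sign-flip p = 0.75). With Vpreb3 added to the numerator the difference was -0.013, and with every well thinned to 1000 transcripts it was 0.5 (exact p = 0.1, the smallest this design allows).

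To see which cells carried the transcripts, each well was given the class of which it held the largest share of marker genes, if at least 30%. None of the 10 members is a marker. This gave 40 B lineage-like wells, each with at least 6 of the 19 measured B lineage markers: 5, 22 and 5 in CD44+ libraries 1, 2 and 3, and 4, 0 and 4 in CD44- libraries 1, 2 and 3. The others were 101 early erythroid-like, 15 late erythroid-like, 72 neutrophil-like, 12 monocyte-like, 21 stroma-like and 2 T or NK-like wells, and 80 wells reached no class, of which 69 were of low quality. Among the 6 wells just inside the limit Cd79 had 2 to 7 transcripts, and among the 9 wells just outside it 0 to 8. Ptprc was found in 28 of the 40 B lineage-like wells.

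Of the 4172 member transcripts, 68.9% came from these 40 wells. They held 83.3% of the transcripts of Vpreb1, 79.4% of Vpreb2, 77.4% of Igll1, 82.0% of Blnk, 70.6% of Cd79b, 67.2% of Vpreb3, 66.7% of Blk, 62.3% of Cd79a, 48.0% of Syk and 23.8% of Btk. After thinning, the surrogate light chain was found in 70.0% of B lineage-like wells, 26.4% of neutrophil-like wells, 0.99% of early erythroid-like wells and 0 of 21 stroma-like wells, which allows a share of up to 14.3% (3 counts; counting error only). Cd79 was found in 87.5% of B lineage-like, 43.1% of neutrophil-like, 8.91% of early erythroid-like and 4.76% of stroma-like wells. Before thinning, the median well of these classes had 4771, 1955, 11390 and 6367 transcripts. Surrogate light chain transcripts averaged 36.5 per 10000 over B lineage-like wells, against 3.10 over neutrophil-like wells (pooled 36.5 against 1.14). The gap differed by library: pooled values were 20.2 against 5.08 in CD44+ library 1, 41.5 against 0.673 in CD44+ library 2, and 7.92 against 2.83 in CD44- library 1. They were 26.6 against 0.288 in CD44+ library 3 and 30.3 against 0 in CD44- library 3. Before thinning, 26 of 72 neutrophil-like wells held the surrogate light chain, and 13 of these were among the 20 such wells of CD44- library 2.

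**Figure D2:**
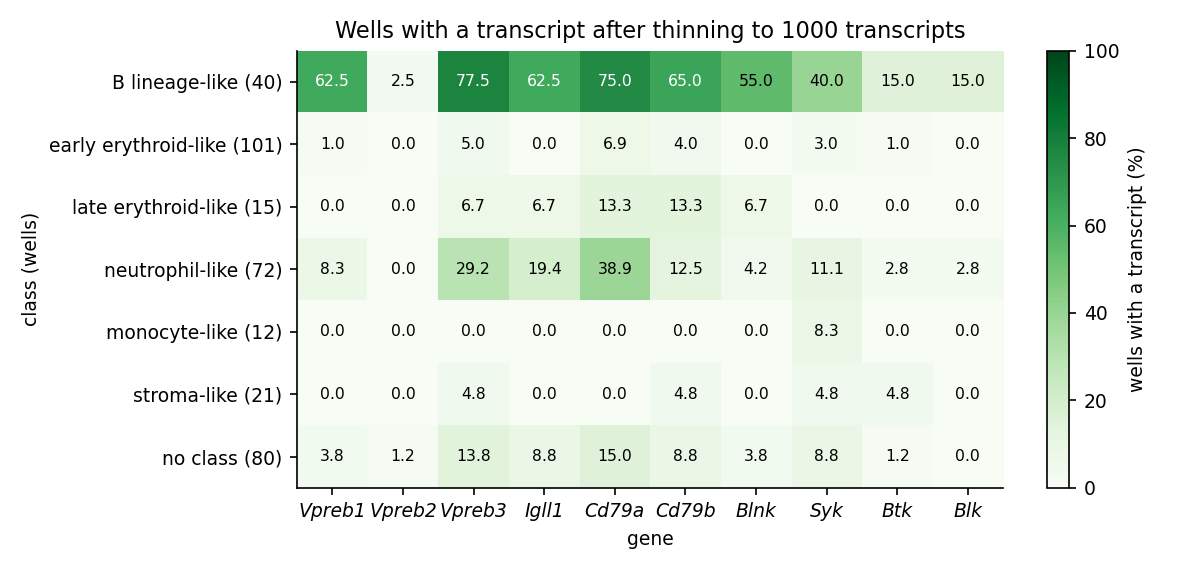
Percent of wells with at least 1 transcript of each gene after thinning to 1000 transcripts, by class of well (rows, number of wells in brackets; 2 T or NK-like wells left out). Vpreb1 and Igll1 were each found in 62.5% of B lineage-like wells, and Cd79a and Vpreb3 also in 38.9% and 29.2% of neutrophil-like wells.

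CD44- library 2 stood apart in the classes of its wells. It held 0 B lineage-like wells and 20 neutrophil-like wells among 24, with the neutrophil marker list at 37370 CPM, the highest of the 6 libraries (all 13 measured markers were found in both sorts, at 4924 to 12830 CPM in the CD44+ libraries and 1342 to 37370 CPM in the CD44- libraries). Yet 15 of its 24 wells held a surrogate light chain transcript and 19 a Cd79 transcript. Its 39 surrogate light chain transcripts were spread thinly, at a median of 3.90 per 10000 per well, and 14 of them came from 1 well with 26244 transcripts that held 12 B lineage markers and was classed as early erythroid-like. In CD44- library 3, by contrast, all 89 surrogate light chain transcripts came from 3 B lineage-like wells and 0 of 33 other wells held one (up to 9.09% by 3 counts). What part free RNA or more than 1 cell in a well has in the shares was not tested.

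Over all libraries 16 wells held at least 6 B lineage markers but a larger share of another class's markers. Of these, 3 had at least 12 of the 19 markers, with totals of 26244 to 111333 transcripts and 14 to 81 surrogate light chain transcripts.

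Within B lineage-like wells the receptor's signalling chains were found nearly everywhere, and the surrogate light chain was not. Cd79 was found in 40 of 40 wells (Cd79a in 37, Cd79b in 39), Vpreb3 in 39, Blnk in 37, Syk in 32, Blk in 17 and Btk in 15. The surrogate light chain was found in 30 of 40 wells (75.0%, exact 95% binomial interval 58.8 to 87.3%, which covers counting error only). Vpreb1 was found in 29 wells and Igll1 in 29, both together in 28, and Vpreb2 in 11, each of them with Vpreb1. By library, 4 of 5, 19 of 22 and 3 of 5 wells held the surrogate light chain in the CD44+ sort, against 1 of 4 and 3 of 4 in CD44- libraries 1 and 3. Most of these wells come from CD44+ library 2: without it the share was 61.1% of 18 wells. The 10 wells without surrogate light chain were shallower, with a median of 3126 transcripts against 5724 in the 30 with it. After thinning, Cd79 was found in 87.5% of the 40 wells and the surrogate light chain in 70.0%.

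Btk and Syk had the smallest shares of their transcripts in B lineage-like wells. Btk was found in 30 of 101 early erythroid-like wells, whose median depth was 11390 transcripts, but after thinning in 0.99% of them, against 15% of B lineage-like wells. Its pooled level was 0.952 transcripts per 10000 in B lineage-like wells, 0.386 in monocyte-like, 0.286 in early erythroid-like and 0.243 in neutrophil-like wells. As a mean over wells it was 1.13, 0.13, 0.233 and 0.287, so the other classes have no fixed order, and the monocyte-like value rests on 8 transcripts in 3 wells. Syk stood at a pooled 4.50 per 10000 in B lineage-like wells, 0.996 in neutrophil-like and 0.917 in monocyte-like wells, where it was found in 6 of 12. Syk and Btk are known to act in myeloid cells too. Blnk was found in 0 of 12 monocyte-like and 0 of 21 stroma-like wells, which allows shares of up to 25.0% and 14.3%.

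Per well, Vpreb1 and Igll1 went together. Over the 40 B lineage-like wells the Pearson correlation of their levels, log2(1 + transcripts per 10000), was 0.90 and the Spearman correlation 0.86. These are descriptions: wells of 1 library are not independent, zeros shared by both genes count in them, and depth differs between wells. Vpreb2 correlated with Igll1 at 0.47 and with its copy Vpreb1 at 0.39, on few transcripts. Vpreb3 was less tied to Vpreb1 (0.33), to Igll1 (0.25) and to Cd79a (0.09). The summed surrogate light chain had a Pearson correlation of -0.03 with summed Cd79 and 0.08 with the summed kinases and adaptor. Blk had the lowest correlations with Vpreb1 (-0.42) and Igll1 (-0.36) and its highest with Syk (0.47), and Blnk its highest with Igll1 (0.48) and Vpreb1 (0.42).

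**Figure D3:**
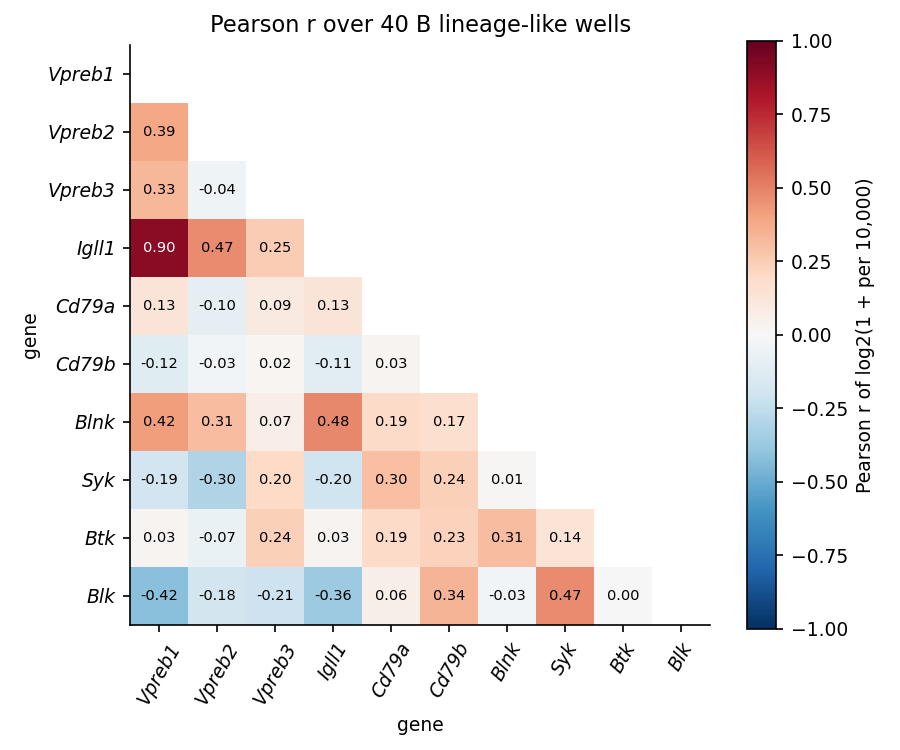
Pearson correlation of the levels of each pair of the 10 genes, as log2(1 + transcripts per 10000), over 40 B lineage-like wells; red is positive and blue negative. Vpreb1 and Igll1 stand apart at 0.90, and Blk was negative with both.

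Among all 343 wells, 82 held the surrogate light chain, 134 Cd79 and 134 a kinase or adaptor transcript. Both surrogate light chain and Cd79 were in 67 wells, 81.7% of the wells with surrogate light chain and 50% of the wells with Cd79. By sort, 46 of 57 CD44+ wells and 21 of 25 CD44- wells with surrogate light chain also held Cd79. All 3 parts were found together in 54 wells, the surrogate light chain alone in 10, Cd79 alone in 28 and a kinase or adaptor alone in 36. With at least 2 transcripts required of each, 44 wells held both surrogate light chain and Cd79, and after thinning 43 did.

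The ratio of surrogate light chain to Cd79 differed widely from well to well. In the 26 B lineage-like wells with at least 10 Cd79 transcripts, 21 held the surrogate light chain at a median of 1.33 transcripts per Cd79 transcript, from 0.111 to 3.58. In the other 5 wells no surrogate light chain transcript was found beside 17 to 32 Cd79 transcripts, at totals of 4219 to 8356 transcripts. For these wells 3 counts correspond to 3.59 to 7.11 per 10000, whereas the 21 wells had 4.24 to 113 per 10000 with a median of 49.2. The 5 wells came from 4 libraries, 1 from CD44+ library 1, 2 from CD44+ library 2, 1 from CD44+ library 3 and 1 from CD44- library 1. The wells of CD44+ library 1 and CD44- library 1 share a well number and so a cell barcode. Their profiles correlated at 0.16 over 8811 genes, against medians of 0.10 and 0.09 and highest values of 0.17 and 0.13 with the other B lineage-like wells. Without both, 3 wells from 2 libraries remain, again with Dntt in 0 and Blk in all 3. Among the 21 wells with surrogate light chain, those numbered 123 in CD44+ libraries 2 and 3 also share a barcode and were kept. Their profiles correlated at 0.29, against medians of 0.20 and 0.13 and highest values of 0.34 and 0.23 with the other B lineage-like wells. The cause of this likeness was not tested.

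**Figure D4:**
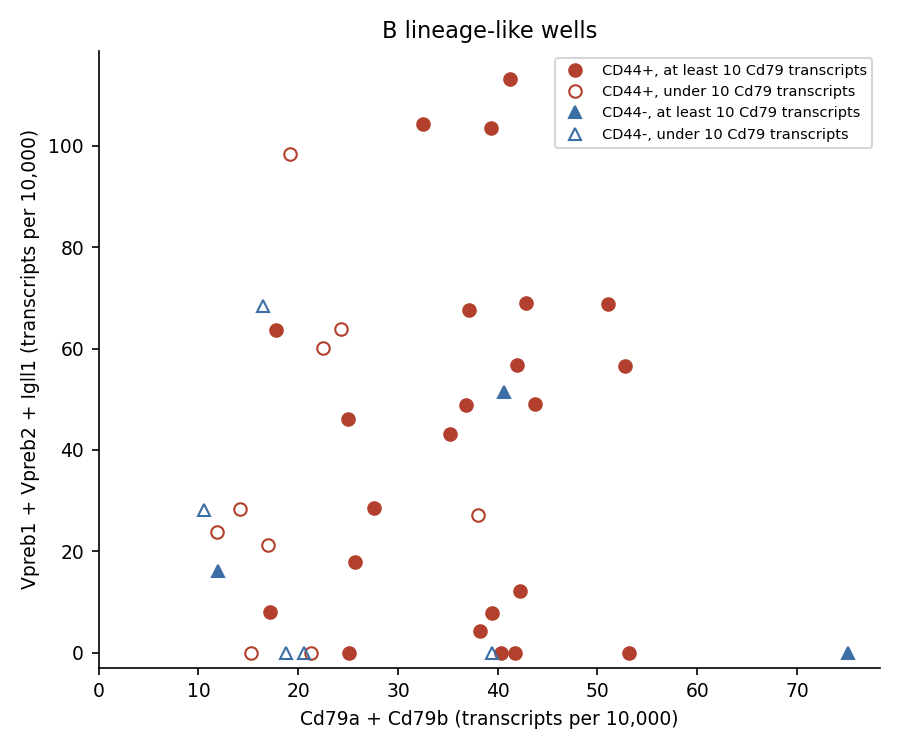
Surrogate light chain (Vpreb1, Vpreb2 and Igll1) against Cd79 (Cd79a and Cd79b) in each of 40 B lineage-like wells, both in transcripts per 10000; red circles are CD44+ wells, blue triangles CD44- wells, and open symbols have fewer than 10 Cd79 transcripts. The 5 filled symbols on the zero line have 17 to 32 Cd79 transcripts and none of the surrogate light chain.

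In the wells without surrogate light chain transcripts, chosen to hold at least 10 Cd79 transcripts, other members were found. They held Vpreb3 in 4 of 5, Blnk in 4 of 5, and Cd79a, Cd79b, Syk and Blk in 5 of 5, and Btk in 2 of 5. In pooled transcripts per 10000, Cd79a stood at 24.3 in the wells without and 22.2 in the wells with surrogate light chain, and Cd79b at 19.5 against 9.90. Syk stood at 11.8 against 3.49, and 1 of the 5 wells alone was at 41.0. Blk was found in 5 of 5 wells without and 9 of 21 wells with surrogate light chain, at 4.41 against 1.38 per 10000. Vpreb3 was at 15.4 against 27.8 and Blnk at 6.24 against 8.18. The ranges of the wells overlap for each of these 6 genes. The wells were split by the members themselves, so these values describe the wells and carry no test.

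Other genes of B cell development were compared in the same way, and those named were picked out after their values were seen. Dntt, the terminal transferase gene of early B lineage cells, had 0 transcripts in the 5 wells without surrogate light chain, against 304 transcripts in 17 of the 21 wells with it. Lef1, a transcription factor gene of early B lineage cells, was found in 1 of 5 against 17 of 21 wells. Other B lineage markers went either way. Il7r stood at 4.41 against 2.56 per 10000 and Sox4 at 4.41 against 2.90, whereas Ebf1 stood at 1.10 against 3.49. Summed with Dntt and Lef1, the measured B lineage markers were close, at a pooled 87.06 against 83.35. Spib, an Ets family factor gene of B cells, was found in 5 of 5 against 18 of 21 wells, at 12.1 against 3.05 per 10000. The lowest of the 5 wells (7.18) was above the highest of the 21 (5.63). The share of all genes with such a gap between these wells was not computed, so Spib cannot be set against a background. Cd74, the invariant chain of MHC class II, was found in 4 of 5 against 2 of 21 wells. Other genes of mature B cells were mixed. Cd37 was found in 4 of 5 against 21 of 21 wells, at 4.04 against 7.14 per 10000. Cr2 was found in 0 of 5 against 2 of 21 and Fcer2a in none of either. H2-Aa and H2-Eb1 were each found in 1 of 5 against 2 of 21, at 0.734 against 0.443 and 0.541. H2-Ab1 was found in 3 of 5 against 9 of 21, at 4.409 against 1.526. Cd22 was found in 2 of 5 against 7 of 21, at 3.675 against 0.935. Ms4a1 was found in 1 of 5 against 2 of 21, at 1.101 against 0.098. Summed with Cd74, these genes stood at a pooled 20.57 against 10.98 per 10000, with medians of 10.23 against 9.574. The highest of the 5 wells was at 75.14 and the highest of the 21 at 35.51. The recombinase gene Rag1 was found in 4 of 5 against 16 of 21 wells at 5.14 against 5.66 per 10000. Plcg2, the phospholipase downstream of Btk, was found in 0 of 5 against 14 of 21 wells, and Fyn, a Src family kinase gene, in 0 of 5 against 11 of 21. Others of the same list ran the other way. Among them were Cblb, a ubiquitin ligase gene, in 3 of 5 against 3 of 21, Dok3 at 5.51 against 2.85 per 10000 and Pik3cd at 2.94 against 1.97. Summed, that list stood at a pooled 40.78 against 45.93. Dntt, Lef1, Spib and Rag1 are also among the markers that define the class. Cell cycle genes were mixed. Mki67 was found in 2 of 5 against 11 of 21 wells, at 6.245 against 6.413 per 10000. Pcna was found in 3 of 5 against 15 of 21, at 6.99 against 11.07. Birc5 stood at 3.67 against 0.738 and Rrm2 at 6.62 against 4.68, whereas Mcm6 stood at 0.734 against 4.98. All cell cycle genes compared summed to a pooled 35.64 against 42.93. Without CD44+ library 2, which gave 17 of the 21 wells with surrogate light chain, Dntt was found in 0 of 3 against 2 of 4 wells, Blk in 3 of 3 against 2 of 4, Cd74 in 2 of 3 against 1 of 4, Lef1 in 0 of 3 against 2 of 4 and Plcg2 in 0 of 3 against 3 of 4. Fyn was then in 0 of 3 against 0 of 4, so its difference came from that library alone.

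**Figure D5:**
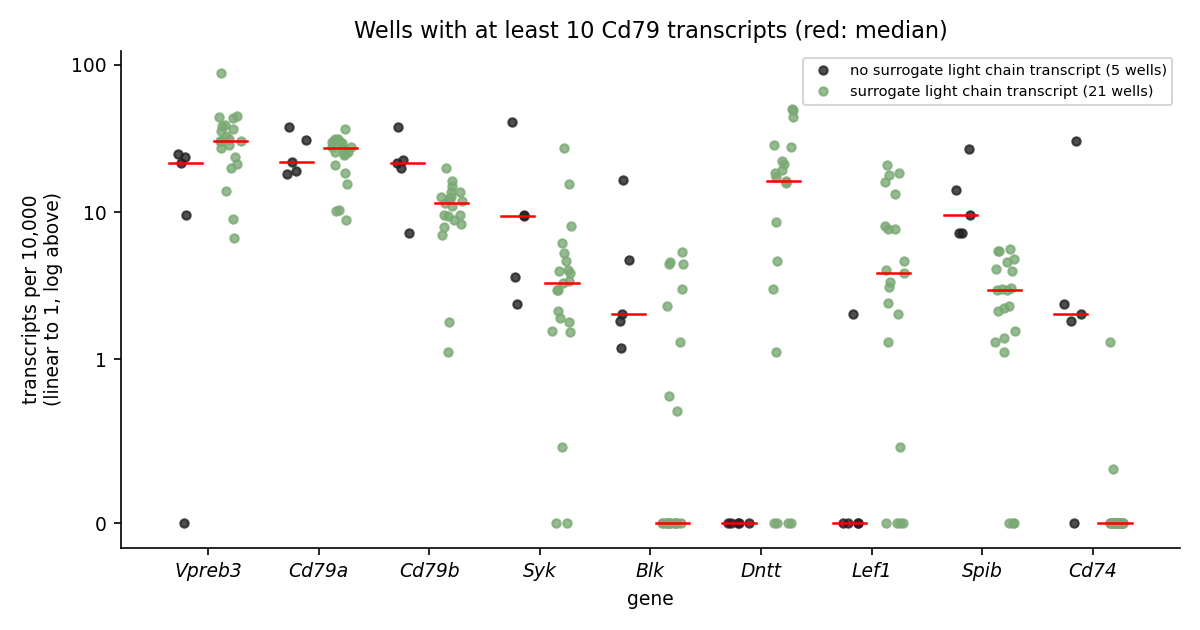
Level of 9 genes, in transcripts per 10000 (linear up to 1, log above), in B lineage-like wells with at least 10 Cd79 transcripts: 5 wells without (black, left) and 21 with surrogate light chain transcripts (green, right), 1 point per well, red lines at the median. Dntt was at 0 in the 5 wells without surrogate light chain, and Spib had a median of 9.48 in them against 2.965 in the 21 others. The genes shown were picked out after their values were seen.

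Further genes of the pathway were taken from a list of 28, all listed in the files. The filter kept 9, of which 0 were called in either direction by edgeR with or without the block (background 6.33% and 1.02%). An unadjusted p under 0.05 was reached by 1 of the 9, against 470 of all 2463 genes tested. Of the 9, 8 fitted differences were below 0, with a median of -0.48, where 52.5% of all genes tested were below 0 with a median of -0.04. Ccnd3, the D-type cyclin of dividing pre-B cells, was at 0.01 (SE 0.35), and Ptpn6, the phosphatase gene SHP-1 that dampens receptor signals, at -0.19 (SE 0.40).

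A second list of 19 transcription factor and recombination genes had 18 listed and 12 tested members, 0 called (background 1.02%). Of these, 10 were below 0 with a median of -0.45, where 52.5% of all genes tested were below 0 with a median of -0.04. Its 3 members with the most transcripts, Myb, Ikzf1 and Bcl11a, were at -0.45, -0.07 and 0.21 (SE 0.45, 0.42 and 0.31); they are used widely in blood progenitors. Of 8 immunoglobulin names 1 was listed, Igj with 2 transcripts, so the heavy chain partner of the surrogate light chain, Ighm, was not analysed here.

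A list of 10 leukocyte core genes, all tested, had all 10 differences below 0 with a median of -1.11. Of all genes tested, 52.5% were below 0 with a median of -0.04. Without the block 0 were called by edgeR; with it 3 were lower in the CD44+ sort, Ptprc (log2 difference -1.37, SE 0.34, adjusted p = 0.0412), the tetraspanin gene Cd53 (-1.59, SE 0.32, adjusted p = 0.0194) and Cd52 (-1.57, SE 0.36, adjusted p = 0.0318). The background with the block was 4.59% of all genes tested lower and 1.75% higher in the CD44+ sort, and without it 1.02% in either direction. The part of these genes in the levels of the 10 members was not tested.

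The genes most like the 10 members were sought among 8802 non-member genes found in at least 20 wells, by the correlation of their level with the summed members over all 343 wells. High among them were Ptprcap, the CD45-associated protein gene (Pearson 0.66), the phosphodiesterase gene Pde2a (0.64) and Dntt (0.63). Cd37 (0.61), the B cell co-activator gene Pou2af1 (0.61), Rag1 (0.61), Pyhin1 (0.59), Trp53i11 (0.58) and Chchd10 (0.58) followed. Of these 9, Dntt had the largest share of its transcripts in B lineage-like wells (86.6%) and Cd37 the smallest (35.5%). Dntt, Pou2af1, Rag1 and Chchd10 are among the markers that define this class, so their shares are partly set by the rule. Set against the sum of the other 9 in the same way, Vpreb3 was the most typical member (0.82), followed by Cd79a (0.78), Cd79b and Blnk (0.71 each), Vpreb1 (0.64), Igll1 (0.62) and Syk (0.55), with Blk (0.40), Vpreb2 (0.34) and Btk (0.25) last. The correlations are over wells that share libraries and class, and are given as descriptions.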

How the data were processed

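Single cells on 4 plates of 384 wells were measured by SORT-seq, which tags each well and each molecule. The deposited values are expected counts: transcripts per gene and well that the authors estimated from molecular tags, without scaling between wells; BWA 0.7.15 and mm10 were used per the submitters' processing notes, and a counter, an annotation or a strand setting was not given in the sources used here. The row blocks of the shared plates were read as wells 1 to 192 and 193 to 384, an order the labels do not state. Wells of at least 1000 transcripts were kept (343 of 1536; 1193 left out); no doublet caller was run, since single cells were sorted. The kept wells of the shared plates had 69 well barcodes in common and other plate pairs 9 to 15.

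Transcripts were summed per plate and sort, rounded, and compared with edgeR 4.0.16 (quasi-likelihood test, TMM, filterByExpr, Benjamini-Hochberg, threshold 0.05, two-sided) in R 4.3.3, with DESeq2 1.42.0 as an alternative; the edgeR step was tested on simulated data. SE is the log2 difference over the square root of F. Exact permutation tests, thinning to 1000 transcripts per well and class shares used Python 3.11.15 with scipy 1.17.1. The log2 ratio of surrogate light chain to Cd79 per library had a pseudocount of 1; other ratios had none. Low quality means 10% or more of Kcnq1ot1 and accompanying transcripts or 50% or more mitochondrial transcripts. The rule for classes was set after the data were seen, as was the split of wells by surrogate light chain.

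The members and gene lists were chosen with earlier results of these data known. Named genes were all members, of each other list the genes past the threshold with or without the block and the 3 with the most transcripts, and the 10 non-member genes most correlated with the members' sum. One gene this rule names is not reported here. Deviations from the sort's mean correlated at 0.32, 0.22 and 0.23 between same-numbered libraries and at -0.26 to 0.06 otherwise, and the labels put replicates 2 and 3 of both sorts on shared plates, so the numbers pair the libraries. Alternatives were other tests, filters, well minimums, thinning, wells left out, libraries left out and the block.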

Additional observations from a re-analysis of the deposited data

Results flagged for a closer look

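Wells under 1000 transcripts, which no comparison uses, held 452 transcripts of the 10 members, 87 of them of the surrogate light chain, in 198 of 1193 wells. By library this was 92, 88 and 2 transcripts in the CD44+ sort and 120, 130 and 20 in the CD44- sort, or 1283, 3591 and 149 CPM against 1968, 3018 and 560 CPM of the transcripts in these wells. The values are given because these wells held 249387 transcripts in all that no comparison uses. There is no control without cells to set them against, so whether they lie above a background was not tested. The 2 transcripts of CD44+ library 3 do not reach the limit of 3 that a count of 0 allows.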

How the results depend on the processing

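The number of genes called between the sorts was 25 and depended on the setting: 41 with at least 500 transcripts per well, 54 without wells of low quality, 5 without each plate's wells past the 99th percentile of totals, 0 with every well thinned to 1000 (506 tested, 31 at an unadjusted p under 0.05 in edgeR), 270 in DESeq2, 477 with no filter, 156 with the replicate block and 161 on the shared plates alone. Leaving out 1 library gave 0 to 115 (0 in edgeR for each library but CD44- 1, with 336 to 619 at an unadjusted p under 0.05). None of the 7 members tested in the main setting was called under any of these (Blk was, with no filter), and the block changed no member's call. Vpreb3, Cd79a, Blnk and Syk stayed below 0 in each setting that kept them. Vpreb1 reversed to 0.07 without wells above the 99th percentile, 0.25 with no filter and 0.15 on the shared plates, Igll1 to 0.40 thinned and 0.11 with no filter, and Cd79b to 0.22 on the shared plates; with 1 library left out Vpreb1 ranged over -1.65 to 0.44, Igll1 over -1.92 to 0.33 and Cd79b over -1.07 to 0.40. The difference in the share of wells with surrogate light chain reversed to 0.691 points without wells of low quality and ranged over -15.157 to 3.705 with 1 library left out, highest without CD44- 2. The log2 ratio to Cd79 reversed to -0.013 with Vpreb3 added, and ranged over 0.015 to 0.745 with 1 library left out. Wells with both surrogate light chain and Cd79 were 67, and 43 thinned and 44 with at least 2 transcripts. The replicate block gave p = 0.25 for the share and 0.75 for the ratio (exact sign-flip permutation test over 3 pairs), neither changing the call. The causes were not tested. Added after the data were seen, the share of B lineage-like wells with surrogate light chain was 61.1% to 80.8% over 5 alternatives. A gene with no transcript in a well is not shown to be absent from it at this depth.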
